A study of Mus musculus with 137 samples.

Results

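The 7 CXC chemokine genes Cxcl1, Cxcl2, Cxcl3, Cxcl9, Cxcl10, Cxcl11 and Cxcl16 were followed in mouse bone marrow-derived macrophages (BMDMs) that differ in Beclin 1. They were chosen by name among the 34573 gene symbols of the count tables, and each was found in all 3 tables and passed the filter on low counts in the fit of each cohort. Marrow from mice aged 7 weeks was grown in M-CSF (20 ng/ml) over 7 days. The macrophages were then harvested untreated (0 h) or after 6 h or 24 h with both lipopolysaccharide (LPS, 100 ng/ml) and interferon-gamma (IFN-gamma, 100 ng/ml). RNA was read by Smart-Seq2, an oligo-dT-primed RNA-seq protocol, in 3 cohorts, each deposited as its own table.

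The knockout (KO) cells of the cohorts called KO1 and KO2 had the genotype Beclin1flox/flox-LysM-Cre+, and their wild-type (WT) controls, Beclin1flox/flox-LysM-Cre-, carried the same floxed allele without Cre. LysM-Cre is expressed from the Lyz2 locus, so deletion is limited to the myeloid lineage and need not reach every cell. The mutant cells of the cohort called KI were Beclin1F121A/F121A, a knock-in of a single amino acid change, and its controls are labelled WT with no floxed allele named. KO1 holds 3 sample numbers per genotype, S33 to S35 for the WT and S36 to S38 for the KO cells, each called a culture here. The 3 repeats of a culture at each time were summed, so that n = 3. In KO2 a group is 8 libraries, except for 7 in the WT group of 24 h, and in KI it is 6. The labels do not say whether the numbers of any cohort stand for separate mice, cultures or repeats, so p-values measure the spread between these libraries, which may be technical.

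CXC chemokines are small secreted proteins that direct leukocyte migration through G protein-coupled receptors. The members with a glutamate-leucine-arginine (ELR) motif before their first cysteines, here Cxcl1, Cxcl2 and Cxcl3, bind Cxcr2 and recruit neutrophils, and macrophages make them soon after Toll-like receptor signalling through NF-kB. Cxcl9, Cxcl10 and Cxcl11 lack the motif, are induced by interferons and bind Cxcr3 on activated T and NK cells, whereas Cxcl16 is made as a membrane-anchored protein that is shed by Adam10 and binds Cxcr6. Beclin 1 is a subunit of the lipid kinase complex that starts autophagosome formation, and the F121A change is known to weaken its binding to Bcl-2 and to raise autophagy.

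The upstream sequences of the members are shown because the ELR genes share a match to the NF-kB consensus, and Cxcl10 holds such matches as well. RefSeq promoters (build GRCm38.p6, 250 bases before to 50 after each gene's start) were at hand for 5 of the 7 members, Cxcl1, Cxcl2, Cxcl3, Cxcl9 and Cxcl10. Below, each run is written 5′ to 3′ on the gene's own strand and ends at the base before the start. Capitals mark matches to the NF-kB consensus, searched by name on both strands with overlapping matches joined, and in Cxcl10 also the match to the interferon-stimulated response element (ISRE), also searched by name on both strands.
Cxcl1, chr5:90891154-90891244, plus strand: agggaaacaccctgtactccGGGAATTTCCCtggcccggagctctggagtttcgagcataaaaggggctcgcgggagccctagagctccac
Cxcl2, chr5:90903782-90903898, plus strand: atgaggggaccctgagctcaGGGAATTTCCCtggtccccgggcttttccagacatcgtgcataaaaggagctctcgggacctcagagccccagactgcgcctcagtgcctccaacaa
Cxcl3, chr5:90786008-90786100, plus strand: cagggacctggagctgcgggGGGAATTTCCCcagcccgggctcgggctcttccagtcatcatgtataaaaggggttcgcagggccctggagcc
Cxcl10, chr5:92348890-92349122, minus strand: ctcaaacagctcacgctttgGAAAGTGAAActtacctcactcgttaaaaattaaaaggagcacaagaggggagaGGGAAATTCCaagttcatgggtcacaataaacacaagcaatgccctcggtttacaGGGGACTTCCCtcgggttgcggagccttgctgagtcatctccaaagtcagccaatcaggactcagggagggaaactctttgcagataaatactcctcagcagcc

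The 3 ELR genes held the same NF-kB match, with its first base at position -71 in Cxcl1, -97 in Cxcl2 and -73 in Cxcl3, counted with the first transcribed base as 0. Cxcl10 held NF-kB matches at -159 and -104 and its ISRE match at -213. The 300 bases of Cxcl9 held no match to the NF-kB consensus, to the ISRE or to the gamma-activated site (GAS) letters TTCNNNGAA, and no GAS match was found in the other 4 promoters. Of 32851 RefSeq promoters of the same length, 8.46% held an NF-kB match, 3.44% an ISRE match and 8.3% a GAS match. These are matches of letters, and no binding was measured.

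Of the 7 genes 6 lie on chromosome 5 in GRCm38, Cxcl1 (90891241 to 90893115), Cxcl2 (90903871 to 90905938) and Cxcl3 (90786103 to 90789600) on the plus strand and Cxcl9 (92321347 to 92328079), Cxcl10 (92346638 to 92348889) and Cxcl11 (92359544 to 92365485) on the minus strand. Cxcl16 is on chromosome 11 (70453983 to 70459984, minus strand). The ELR transcripts also differed from the others in their 3′ untranslated regions by the pentamer ATTTA, the core of AU-rich elements that mark short-lived mRNAs. Cxcl1 held 7 copies (11.8 per kb), Cxcl2 11 (15 per kb) and Cxcl3 5 (7.75 per kb), densities reached by 0.572%, 0.292% and 2.47% of 17490 coding genes. Densities of 0.821 per kb in Cxcl11, 1.22 in Cxcl9, 1.41 in Cxcl16 and 2.74 in Cxcl10 were reached by 24.8% to 57.2% of genes. The coding sequences of Cxcl2 and Cxcl3 are 89.8% identical and their transcripts share 73 stretches of 38 bases, or 6.81% of those of Cxcl2 and 7.46% of those of Cxcl3, so reads from those stretches cannot be told apart. Cxcl16 shares 21% of such stretches with the antisense gene Zmynd15 and Cxcl10 9.08% with Art3, which matters because the reads carry no strand. Art3 stayed at or below 4.54 CPM (a count divided by the library total in genes, times 1e6) and Zmynd15 at or below 37.9 CPM in every group of samples. Cxcl11 is annotated as a polymorphic pseudogene in the reference strain C57BL/6J, and the strain of these mice is not given in the sources used here, so its values are transcript levels only.

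Library totals lay between 1898574 and 6579185 counts for KO1, between 1448218 and 15627379 for KO2, and between 3574158 and 11786453 for KI. Becn1, the targeted gene, was lower in the KO cells of both cohorts and did not pass the test in KI. At 0 h its level was 34.4, 42.2 and 49.2 CPM (lowest, median, highest) in KO2 WT and 1.93, 4.85 and 7.32 CPM in KO2 KO, a log2 fold change of -3.28 ± 0.15 (SE; edgeR's quasi-likelihood test with Benjamini-Hochberg adjustment over all genes tested, adjusted p = 6.14e-25). In KO1 it was 46.8, 60.7 and 46 CPM in the WT cultures against 15, 29.4 and 15.5 CPM in the KO cultures at 0 h, a log2 fold change of -1.51 ± 0.20 (adjusted p = 0.00452). This KO1 call was lost, at a similar fold, on library totals (adjusted p = 0.0575), in the 2 groups alone (0.404) and without S33, S34, S36 or S38 (0.0528 to 0.0813). Xist stood at 70.0 CPM or above in every KO2 WT library and at 1.62 CPM or below in every KO2 KO library, and Ddx3y at 0.519 or below against 5.33 or above. Genotype and sex therefore cannot be told apart in KO2, whereas the libraries of KI were all high in Xist and those of KO1 all high in Ddx3y. Of 10 macrophage markers 9 were found by symbol, and each had a mean of at least 1 CPM in every group.

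Stimulation raised all 7 chemokines. At 6 h against 0 h, 7 of 7 members were called higher (adjusted p under 0.05) in WT and mutant cells of each cohort, with no overlap between the samples of the 2 times. Calls in either direction were common among all genes in these comparisons: 56.7% of genes tested in KO1 WT, 55.3% in KO1 KO, 70.8% in KO2 WT, 74.3% in KO2 KO, 73.5% in KI WT and 74.5% in KI F121A. The shares of all genes called higher, and of all genes without overlap, are not given here. In KO2 WT, Cxcl1 rose from 0.837 CPM at rest (median, range 0.336 to 1.20) to 51.5 CPM (38.0 to 83.9), and Cxcl2 from 4.59 (2.31 to 8.06) to 443 (369 to 737). Over the same 6 h Cxcl9 went from 4 counts in all 8 libraries together to 3102 CPM (2817 to 3602), and Cxcl10 from 0.994 CPM (0.171 to 2.95) to 3628 (3432 to 4203). Cxcl16 was already at 405 CPM (372 to 445) at rest and reached 1894 (1785 to 2136). The log2 fold changes of the fit were 6.90 ± 0.34 for Cxcl1, 7.41 ± 0.22 for Cxcl2, 7.66 ± 0.30 for Cxcl3, 12.28 ± 0.29 for Cxcl10, 9.12 ± 0.19 for Cxcl11 and 3.08 ± 0.12 for Cxcl16. The fitted change of a gene as low at rest as Cxcl9 or KI Cxcl3 depends on the count added by the fit, and its rise is not given. For KI WT Cxcl3, 2 counts at rest against 511 at 6 h gave a CPM ratio of 238 (exact 95% counting interval 65.6 to 1970).

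These time changes are relative to the bulk of genes, because the fit scales libraries by TMM. With library totals in place of TMM the median log2 change of all genes at 6 h against 0 h moved from -0.09 to -1.11 in KO1 WT, from -0.11 to -0.93 in KO2 WT and from 0.00 to -1.19 in KI WT. All 7 members were still called higher at 6 h on that scale. In the genotype comparisons the shift was smaller, from 0.01 to 0.20 in KO2 at 0 h and from 0.02 to 0.24 in KO2 at 6 h. On library totals the share of higher genes among the calls then went from 46.3% to 85.9% in KO2 at 0 h, from 49.6% to 86.7% in KO2 at 6 h, from 80.5% to 91.7% in KI at 0 h, from 69.7% to 58.5% in KI at 6 h and from 47.5% to 32.7% in KI at 24 h.

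Per kb of transcript, the only scale on which genes are compared here, Cxcl10 was the most abundant member at 6 h in every group, with 3380 CPM per kb in KO2 WT, 3700 in KI WT and 6680 in KO1 WT. Cxcl9 followed in KO2 WT at 1090 and in KI WT at 3330 CPM per kb, and Cxcl16 in KO2 WT at 715. Among the ELR genes Cxcl2 led with 444 CPM per kb in KO2 WT at 6 h, against 56.8 for Cxcl1 and 36.3 for Cxcl3. Together the 7 transcripts held 0.0414% ± 0.0022 of all counts at rest in KO2 WT (SD, n = 8) and 0.951% ± 0.068 at 6 h. In KI WT the share at 6 h was 1.66% ± 0.041 (n = 6).

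**Figure D1:**
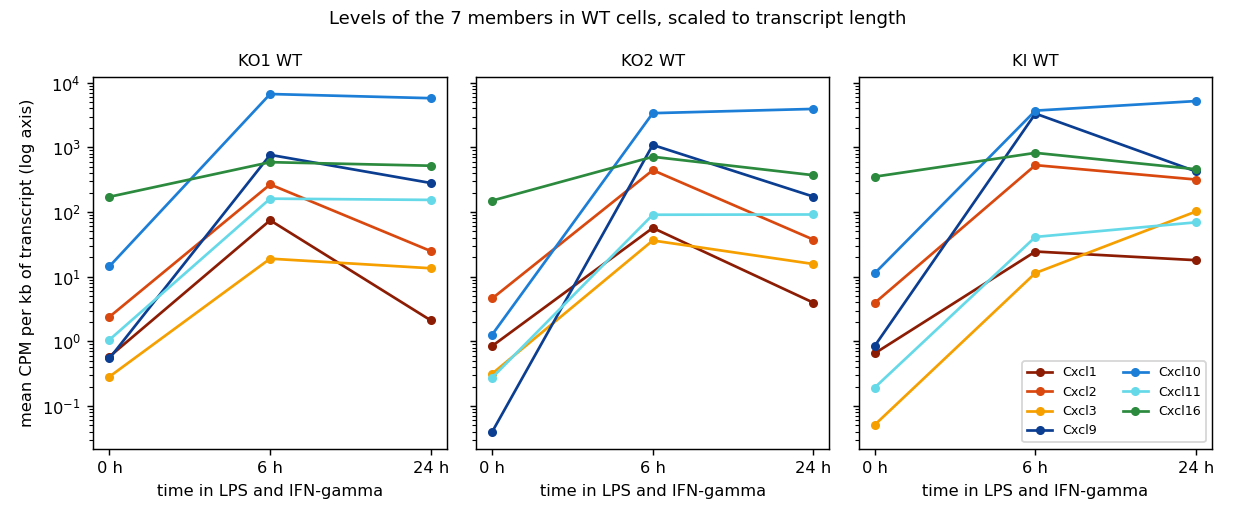
Mean level of the 7 members in WT cells of each cohort, in CPM per kb of transcript on a log axis, against time in LPS and IFN-gamma. Cxcl1 and Cxcl2 fell steeply from 6 h to 24 h in KO1 and KO2 while Cxcl10 stayed high, and Cxcl3 was higher at 24 h than at 6 h in KI.

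From 6 h to 24 h the ELR members split by gene and by cohort. Members called in this interval were 3 of 7 in KO1 WT (54.6% of all genes tested), 3 of 7 in KO1 KO (48.1%), 6 of 7 in KO2 WT (59%), 7 of 7 in KO2 KO (55.5%), 6 of 7 in KI WT (65.4%) and 5 of 7 in KI F121A (65.1%). In KO2 WT the mean of Cxcl1 at 24 h was 6.98% of its 6 h mean and that of Cxcl2 8.41%, in CPM. Cxcl9 kept 15.8% and Cxcl16 51.9%, whereas Cxcl10 stood at 116% and Cxcl11 at 101%. The log2 changes were -4.31 ± 0.27 for Cxcl1, -3.97 ± 0.19 for Cxcl2, -1.62 ± 0.18 for Cxcl3 and -3.04 ± 0.15 for Cxcl9. Cxcl11, at -0.36 ± 0.11, was not called with no filter on low counts (-0.28, adjusted p = 0.0735) and turned to 0.01 on library totals. In KO1 WT, Cxcl1 fell from 13.1, 25 and 175 CPM to 3.34, 1.14 and 1.55 CPM in cultures S33, S34 and S35, and Cxcl2 from 118, 260 and 511 to 44.4, 24.5 and 14.1. The third KO1 WT call, Cxcl9 (-1.43 ± 0.42, adjusted p = 0.00807), was lost without culture S34 (adjusted p = 0.0863). In KO1 KO the same 3 genes were called, and Cxcl9 (-1.16 ± 0.42, adjusted p = 0.0288) was lost without S36 (0.181) or S38 (0.0813) and on library totals (0.0807).

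Cxcl3 went the other way in KI. In KI WT it stood at 10.8 CPM at 6 h (median, range 7.37 to 16.6) and 102 CPM at 24 h (71.9 to 136), with no overlap, a log2 change of 2.84 ± 0.19 (adjusted p = 6.02e-17). In KI F121A it went from 5.23 (3.90 to 6.27) to 38.5 CPM (25.7 to 50.8), a log2 change of 2.53 ± 0.20 (adjusted p = 1.98e-14). Over the same interval in KI WT, Cxcl1 kept 73.3% and Cxcl2 59.9% of the 6 h mean. Time courses were not tested between cohorts.

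Between genotypes the ELR members moved in opposite directions in the knockout and the knock-in. In KO2, 5 of 7 members were called at 6 h (15.4% of all genes tested) and 4 of 7 at 24 h (11.3%), and Cxcl1, Cxcl2 and Cxcl3 were the 3 called higher at both times (7.62% and 6.26% of all genes were called higher). In KI, 4 of 7 members were called at 6 h (11.5%) and 4 of 7 at 24 h (7.2%), and all 3 ELR genes were among those called lower at both times (3.49% and 3.78% of all genes were called lower). The median log2 fold change of the ELR members was 1.31 at 6 h and 2.28 at 24 h in KO2 and -1.09 and -1.17 in KI, against 0.02, -0.02, 0.02 and -0.00 over all genes. For the 3 interferon-induced members the medians were -0.14 and -0.46 in KO2 and 0.05 and 0.06 in KI.

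**Figure D2:**
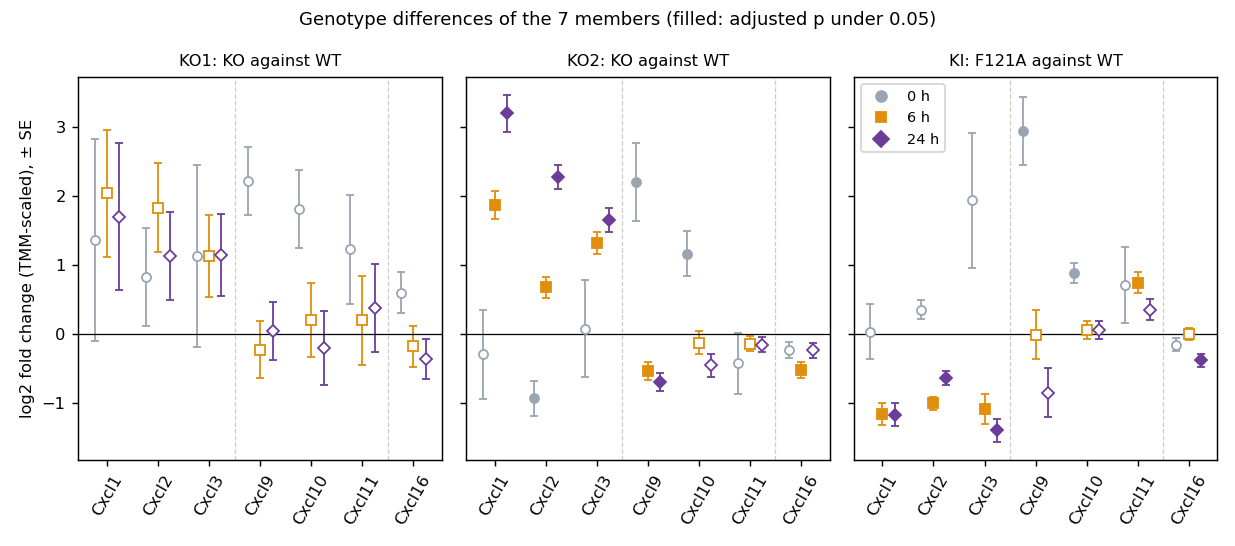
Log2 fold change of mutant against WT, scaled by TMM, for each member at 0 h, 6 h and 24 h in the 3 cohorts, with bars of 1 SE and filled symbols for adjusted p under 0.05. The ELR genes Cxcl1, Cxcl2 and Cxcl3 lie above 0 in KO2 and below 0 in KI at 6 h and 24 h, whereas Cxcl10 stays within 0.5 of 0 at those times in all 3 cohorts.

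Cxcl1, a main neutrophil attractant of the mouse, had the largest KO2 difference among the 7. At 6 h it was at 38.0, 51.5 and 83.9 CPM (lowest, median, highest) in KO2 WT and 83.3, 244 and 394 CPM in KO2 KO. Of the 8 KO libraries 7 lay above every WT library, and the log2 fold change was 1.86 ± 0.21 (adjusted p = 4.2e-10). By 24 h the groups no longer overlapped, with 1.37, 4.10 and 6.07 CPM in WT and 19.7, 36.3 and 47.6 CPM in KO, a mean ratio of 8.89 and a log2 fold change of 3.19 ± 0.27 (adjusted p = 5.04e-14). At rest Cxcl1 was near its floor in both genotypes, with 29 counts over the WT and 26 over the KO libraries. The KO cells thus had more Cxcl1 transcript at 6 h and still had more at 24 h, and the further widening between the 2 times, 1.33 ± 0.34 on the log2 scale, passed the test of the interaction (adjusted p = 0.0062).

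In the F121A cells Cxcl1 was lower at both times and the groups did not overlap at either. At 6 h it was at 18.6, 23.1 and 29.7 CPM in KI WT and 7.69, 8.72 and 14.3 CPM in F121A, a log2 fold change of -1.16 ± 0.16 (adjusted p = 1.68e-06). At 24 h it was at 15.9, 16.4 and 19.4 CPM in WT and 5.13, 7.89 and 8.72 CPM in F121A (-1.17 ± 0.17, adjusted p = 4.06e-06). The knockout effect minus the knock-in effect was 3.05 ± 0.29 at 6 h (adjusted p = 3.32e-14) and 4.36 ± 0.34 at 24 h (adjusted p = 8.03e-19) in a joint fit of both cohorts. The KO2 effect in that fit holds sex as well as genotype.

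Cxcl2, the most abundant ELR transcript here and a Cxcr2 ligand like Cxcl1, followed the same directions after stimulation. In KO2 at 6 h it was at 369, 443 and 737 CPM in WT and 467, 947 and 1440 CPM in KO, with 6 of 8 KO libraries above every WT library (log2 fold change 0.67 ± 0.15, adjusted p = 0.00126). This call was lost when the libraries were summed in threes (0.54, adjusted p = 0.0811). At 24 h the values of 33.9, 36.4 and 62.4 CPM in WT and 161, 198 and 230 CPM in KO did not overlap (2.28 ± 0.17, adjusted p = 6.75e-16), and the widening from 6 h to 24 h was 1.60 ± 0.23 (adjusted p = 5.95e-07). At rest, in contrast, Cxcl2 was lower in KO2 KO, at 1.43, 2.69 and 5.80 CPM against 2.31, 4.59 and 8.06 CPM in WT. That resting difference (-0.94 ± 0.26, adjusted p = 0.0121) overlapped between groups and was not called on library totals (-0.73, adjusted p = 0.0606) or in sums of 3 libraries (-0.96, adjusted p = 0.073).

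F121A cells held less Cxcl2 at 6 h, at 231, 290 and 328 CPM against 473, 588 and 724 CPM in WT, with no overlap (-1.01 ± 0.10, adjusted p = 9.91e-10). The gap was smaller at 24 h, at 181, 221 and 256 CPM against 319, 356 and 385 CPM, again with no overlap (-0.64 ± 0.10, adjusted p = 2.47e-05). The difference between the knockout and knock-in effects was -1.29 ± 0.31 at rest (adjusted p = 0.00435), 1.72 ± 0.20 at 6 h (adjusted p = 1.59e-10) and 2.91 ± 0.21 at 24 h (adjusted p = 5.17e-20).

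Cxcl3, the third ELR ligand, differed by similar amounts at both times. In KO2 it was at 23.4, 33.9 and 50.9 CPM in WT and 50.9, 110 and 161 CPM in KO at 6 h, where the lowest KO library lay just above the highest WT library (1.31 ± 0.16, adjusted p = 6.52e-09). At 24 h it was at 11.1, 14.9 and 26.9 CPM in WT and 37.4, 52.1 and 64.7 CPM in KO (1.65 ± 0.18, adjusted p = 8.37e-11). In KI it was at 7.37, 10.8 and 16.6 CPM in WT and 3.90, 5.23 and 6.27 CPM in F121A at 6 h (-1.09 ± 0.22, adjusted p = 0.000441). At 24 h, when KI Cxcl3 was at its peak, WT held 71.9, 102 and 136 CPM and F121A 25.7, 38.5 and 50.8 CPM (-1.40 ± 0.17, adjusted p = 2.76e-07). None of the KI groups overlapped after stimulation. The knockout effect minus the knock-in effect was 2.44 ± 0.28 at 6 h (adjusted p = 2.92e-11) and 3.04 ± 0.25 at 24 h (adjusted p = 3.28e-17). At rest Cxcl3 was barely detected: 2 counts in KI WT against 12 in F121A, a CPM ratio of 5.54 with an exact 95% counting interval of 1.23 to 51, did not pass the test (adjusted p = 0.45).

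**Figure D3:**
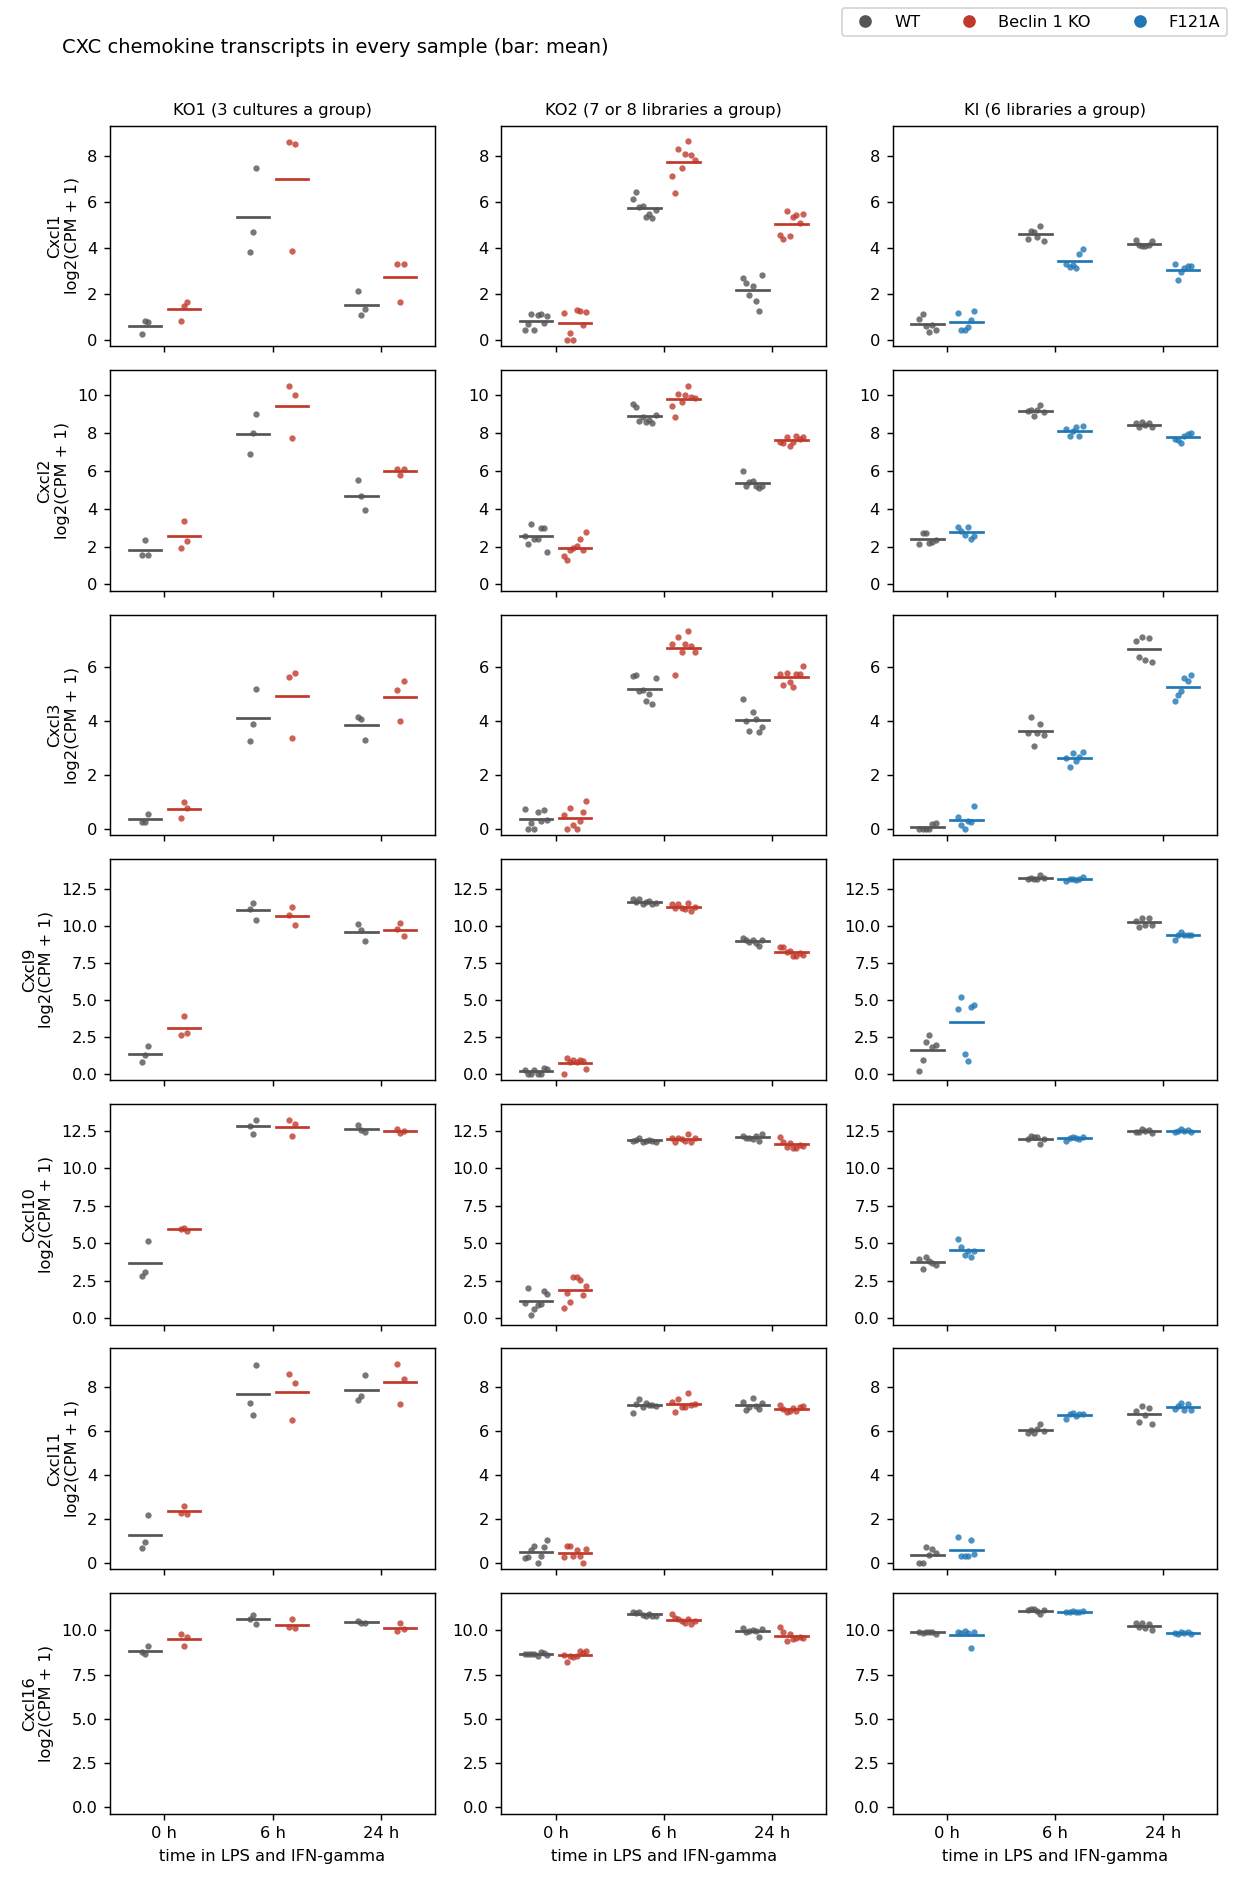
Level of each member as log2(CPM + 1) in every sample at 0 h, 6 h and 24 h, with bars at the group means; points are cultures in KO1 and libraries in KO2 and KI. At 24 h the KO2 KO libraries lie above all WT libraries for Cxcl1, Cxcl2 and Cxcl3, and the F121A libraries lie below all KI WT libraries.

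The joint fits asked how far these effects differ between cohorts. By Xist and Ddx3y the KO2 genotypes differ in sex, whereas those of KO1 and of KI do not. The KO2 effect in these fits thus holds genotype and sex together, and the 2 cannot be told apart. Of the 7 members, 1 was called different between the KO2 and KI effects at 0 h (3.87% of all genes tested), 5 at 6 h (12.2%) and 3 at 24 h (7.1%), the ELR genes being the 3 at 24 h and 3 of the 5 at 6 h. Between KO2 and KO1, which compare the same genotypes, edgeR called 0 of 7 at 0 h (0.488% of all genes), 0 of 7 at 6 h (0.386%) and 0 of 7 at 24 h (0.275%). At an unadjusted p under 0.05 the members were 2, 1 and 2 in number, and DESeq2 called 0 at each time. The KO1 data are too few to show that the cohorts act alike.

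In KO1 no member was called between genotypes, while the means of all 3 ELR genes were higher in KO at each time. edgeR called 0 of 7 members at 0 h (0.0219% of all genes tested), 0 at 6 h (0.0219%) and 0 at 24 h (0.0073%). Unadjusted p-values under 0.05 numbered 2, 2 and 0 among the members, and DESeq2 called 1, 0 and 0. At 6 h Cxcl1 was at 13.1, 25 and 175 CPM in the WT cultures S33, S34 and S35 and at 389, 13.4 and 369 CPM in the KO cultures S36, S37 and S38, a log2 fold change of 2.04 ± 0.92 (adjusted p = 0.997). Cxcl2 was at 118, 260 and 511 CPM in WT and 1448, 218 and 1053 CPM in KO (1.83 ± 0.64, adjusted p = 0.977), and Cxcl3 at 8.66, 13.7 and 35.6 CPM in WT and 48.3, 9.19 and 53.5 CPM in KO (1.12 ± 0.59). In all 3 genes S35 was the highest WT culture and S37 the only KO culture within the WT range. For Cxcl1 at 6 h the 3 repeats of a culture agreed far better than the cultures, with 360 to 406 CPM in the repeats of S36 and 9.43 to 17.5 CPM in those of S37. Becn1 in S37 was 29.4 CPM at 0 h, the highest of the KO cultures, and 8.40 CPM at 6 h. Cxcl2 at 24 h, at 44.4, 24.5 and 14.1 CPM in WT and 67.3, 53.4 and 67.9 CPM in KO, did not overlap between genotypes and still missed the threshold (1.12 ± 0.64, adjusted p = 0.789). The test of KO1 also depended on the filter. With no filter beyond 1 count, edgeR called all 3 ELR genes at 6 h (Cxcl1 2.14, adjusted p = 8.41e-11) and Cxcl1 and Cxcl3 at 24 h. The cultures of the 2 genotypes overlapped in each of these cases, and the filtered fit gave Cxcl1 a similar fold at 6 h with adjusted p = 0.997. The calls without the filter are therefore not taken as evidence of a difference, and the cause of the change was not tested.

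Of the interferon-induced members, Cxcl9 was called lower in KO2 at 6 h and 24 h, and Cxcl11 higher in KI at 6 h. Cxcl9, which attracts Cxcr3-bearing T cells and depends on IFN-gamma, was at 2817, 3102 and 3602 CPM in KO2 WT and 2063, 2453 and 2966 CPM in KO2 KO at 6 h, with 6 of 8 KO libraries below every WT library (-0.55 ± 0.13, adjusted p = 0.00155). At 24 h the KO2 groups did not overlap, at 395, 517 and 585 CPM in WT and 246, 294 and 384 CPM in KO (-0.70 ± 0.13, adjusted p = 8.55e-05). In KI, Cxcl9 at 6 h was at 9166, 9380 and 10990 CPM in WT and 8366, 9287 and 9888 CPM in F121A (-0.01 ± 0.35, adjusted p = 0.993). At 24 h all 6 F121A libraries (535, 656 and 778 CPM) lay below all WT libraries (983, 1186 and 1463 CPM), yet the fit over all groups gave -0.86 ± 0.36 (adjusted p = 0.157). A fit of the 2 groups alone, with their own spread, called it (-0.88, adjusted p = 9.64e-05).

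Cxcl10 and Cxcl11, also Cxcr3 ligands, showed no call in KO2 after stimulation. Cxcl10 was at 3432, 3628 and 4203 CPM in KO2 WT and 3376, 3999 and 4888 CPM in KO at 6 h (-0.13 ± 0.16, adjusted p = 0.673), a value that turned to 0.10 on library totals. At 24 h it was at 3566, 4166 and 5051 CPM in WT and 2618, 2902 and 4282 CPM in KO, 7 of 8 KO libraries being below every WT library (-0.46 ± 0.17, adjusted p = 0.0732, and 0.0263 to 0.0482 in the 4 alternatives that called it). In KI the Cxcl10 levels of both genotypes overlapped at 6 h and 24 h (0.05 ± 0.13 and 0.06 ± 0.13). Cxcl11 was higher in F121A at 6 h, at 93.3, 107 and 110 CPM against 58.3, 63.5 and 79.6 CPM in WT with no overlap (0.73 ± 0.15, adjusted p = 0.000707), and at 24 h the difference of 0.35 ± 0.15 missed the threshold (adjusted p = 0.172). The Cxcl11 effects of KO2 and KI at 6 h differed by -0.85 ± 0.18 (adjusted p = 0.000367).

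At rest Cxcl9 and Cxcl10 were higher in mutant cells of both KO2 and KI, whereas Cxcl11 was called in neither. Members called at 0 h were 3 of 7 in KO2 (8.28% of all genes tested) and 2 of 7 in KI (2.94%), the third in KO2 being the lower Cxcl2. Resting Cxcl10 was at 0.171, 0.994 and 2.95 CPM in KO2 WT and 0.628, 2.79 and 5.69 CPM in KO (1.16 ± 0.33, adjusted p = 0.0151). This KO2 call was lost in sums of 3 libraries (1.15, adjusted p = 0.078). In KI it was at 8.60, 12.3 and 16.2 CPM in WT and 15.9, 21.2 and 38.6 CPM in F121A, with 5 of 6 F121A libraries above every WT library (0.88 ± 0.15, adjusted p = 0.000165). Resting Cxcl9 was at 0.143, 2.63 and 5.04 CPM in KI WT and 0.840, 20.6 and 35.1 CPM in F121A, where 4 of 6 F121A libraries lay above every WT library and the rest within the WT range (2.93 ± 0.50, adjusted p = 0.000166). In KO2 the resting Cxcl9 call (adjusted p = 0.00743) rested on 4 counts in WT and 25 in KO, a ratio of mean CPM of 5.87. KO1 had the same order, with Cxcl10 at 5.94, 7.39 and 34.2 CPM in WT and 61.3, 63.0 and 55.1 CPM in KO, no overlap and no call (1.81 ± 0.56, adjusted p = 0.446). Without culture S35, the highest in WT, KO1 Cxcl10 was called (3.06, adjusted p = 0.018), as was Cxcl9 (2.78, adjusted p = 0.0285). Summed over the 9 dendritic cell markers, resting levels ran from 61.6 to 97.6 CPM in KO2 WT and 117 to 285 CPM in KO2 KO. Bst2 alone averaged 72.6 CPM in WT and 211 CPM in KO, and so made up most of these sums. Bst2 also rose with stimulation, to a mean of 1065 CPM in KO2 WT at 24 h. The sums are therefore not read as numbers of dendritic cells. The part of these markers in the result was not tested.

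The rise over the first 6 h, which also holds any difference at rest, differed between genotypes. In the test of genotype by time at 6 h against 0 h, 3 of 7 members were called in KO2 (4.07% of all genes tested), Cxcl2 (1.61 ± 0.30) with a larger and Cxcl9 and Cxcl10 (-1.29 ± 0.37) with a smaller rise in KO. The Cxcl9 value rests on the 4 resting counts of WT, and the Cxcl10 call was lost in libraries summed in threes (-1.26, adjusted p = 0.137). The Cxcl2 value includes the lower resting level in KO, whose own call was lost on library totals and in sums of 3 libraries. In KI the same 3 genes were called (3.3% of all genes), all with a smaller rise in F121A: Cxcl2 by -1.36 ± 0.17, Cxcl9 by -2.95 ± 0.61 and Cxcl10 by -0.83 ± 0.20. For Cxcl10 in both cohorts and Cxcl9 in KI, the levels at 6 h were not called different between genotypes. Their smaller rise thus mainly reflects the higher resting level in mutant cells. From 6 h to 24 h, 2 of 7 members were called in KO2 (9.78%), the Cxcl1 and Cxcl2 described above, and 0 of 7 by edgeR in KI (4.38%), with 2 at an unadjusted p under 0.05 and 1 by DESeq2. In KO1 edgeR called 0 of 7 in either interval (0.0% of all genes in both), with 1 and 0 members at an unadjusted p under 0.05 and none by DESeq2.

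Cxcl16, the shed scavenger-type chemokine that binds Cxcr6, had the narrowest range of the 7. In KO2 at 6 h it was at 1785, 1894 and 2136 CPM in WT and 1332, 1546 and 1961 CPM in KO, with 7 of 8 KO libraries below every WT library (-0.52 ± 0.11, adjusted p = 0.000485). At 24 h the KO2 difference was -0.24 ± 0.11 (adjusted p = 0.187). In KI the groups were level at 6 h (-0.01 ± 0.09) and apart at 24 h, at 1058, 1256 and 1384 CPM in WT and 899, 925 and 954 CPM in F121A (-0.39 ± 0.09, adjusted p = 0.0041). The KO2 and KI effects differed at 6 h by -0.49 ± 0.15 (adjusted p = 0.0195), and this call was lost with no filter on low counts (adjusted p = 0.118).

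The balance of the 2 subfamilies was summarised in each sample as the mean log2(CPM + 1) of Cxcl1, Cxcl2 and Cxcl3 minus that of Cxcl9, Cxcl10 and Cxcl11, as a description with no test. In KO2 this difference was -3.60 ± 0.40 in WT (SD, n = 8) and -2.08 ± 0.44 in KO (n = 8) at 6 h, and -5.54 ± 0.25 (n = 7) and -2.84 ± 0.42 (n = 8) at 24 h. The ranges at 24 h, -5.82 to -5.08 in WT and -3.39 to -2.41 in KO, did not overlap. In KI it was -4.62 ± 0.19 in WT and -5.89 ± 0.19 in F121A at 6 h, and -3.39 ± 0.11 and -4.28 ± 0.28 at 24 h (n = 6 each), so that F121A lay below WT at both times. Nearly all of the KO2 shift at 6 h came from the ELR side, whose mean rose from 6.61 to 8.08 while that of the interferon-induced genes was 10.21 and 10.16. The KO1 cultures ranged from -5.76 to -3.65 in WT and -4.99 to -2.26 in KO at 6 h, and from -7.11 to -6.22 in WT and -6.12 to -5.09 in KO at 24 h.

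**Figure D4:**
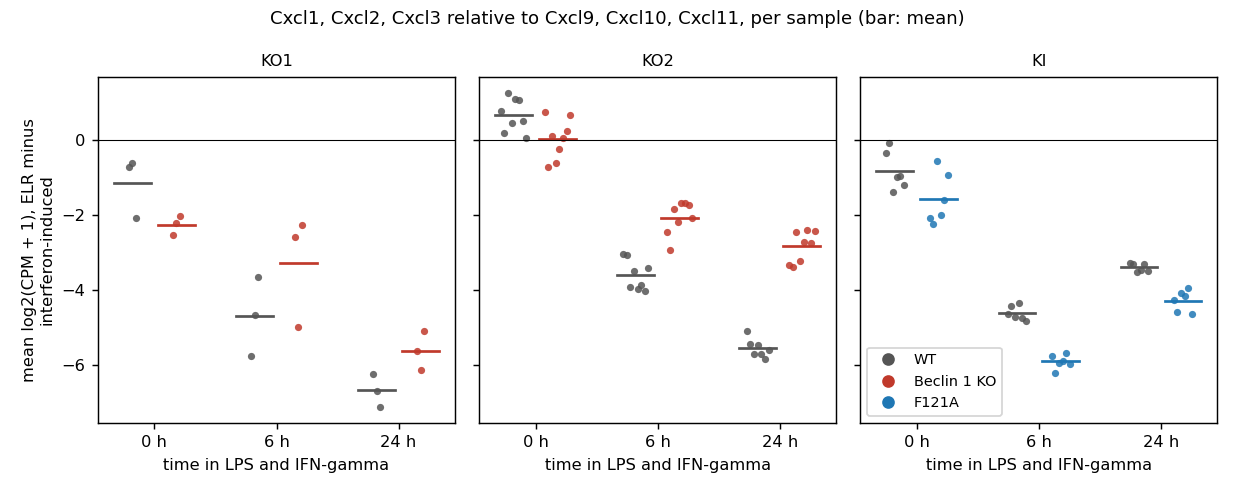
Mean log2(CPM + 1) of Cxcl1, Cxcl2 and Cxcl3 minus that of Cxcl9, Cxcl10 and Cxcl11 in every sample by cohort, genotype and time, with bars at the group means. At 24 h KO2 KO samples lie between -3.39 and -2.41, above KO2 WT at -5.82 to -5.08, whereas F121A samples lie below their WT.

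Within a genotype the ELR genes varied together from library to library in KO2 at 6 h. Over the 16 KO2 libraries at 6 h, after removing each genotype's mean, Pearson's r was 0.86 to 0.95 for the 3 ELR pairs, 0.51 to 0.85 for the 3 interferon-induced pairs and 0.29 to 0.46 for the 9 pairs across the subfamilies. Over the 12 KI libraries at 6 h the ELR pairs had r of 0.21 to 0.63 and the pairs across the subfamilies -0.36 to 0.63, with medians of 0.42 and 0.39. The interferon-induced pairs of KI had r of -0.36 to 0.90, with a median of -0.34. In the 6 KO1 cultures at 6 h the ELR pairs had r of 0.975 to 0.997 and the pairs across -0.84 to 0.93, with a median of 0.83. The interferon-induced pairs of KO1 had r of -0.86 to 0.96, with a median of -0.80. Libraries share depth and preparation, so these values are descriptions. Over the 18 group means, centred by cohort, the gene most like Cxcl1 among 10611 others was Cxcl2 (r = 0.97), followed by Tmem171 and Tlr6. Cxcl2 was most like Il6 (0.99), Psmd10 and Ccrl2, and Cxcl3 like Mfsd7a (0.99), Osgin2 and Rnf24. The genes most like Cxcl9 were Fam26f, Slco3a1 and Nmi, those most like Cxcl10 were Nos2, Gbp7 and Ctsc, and those most like Cxcl11 were Irf1, Upp1 and Sod2. Cxcl16 was most like Ehd1 (0.98), Icam1 and Vasp.

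Other genes of the chemokine system were mostly scarce. Cxcl5, a further ELR ligand of Cxcr2, was the only other ELR gene tested in KO2 and KI and repeated the pattern at 24 h, at 2.40 CPM in KO2 KO against 1.07 in WT (1.17 ± 0.33, adjusted p = 0.0103) and at 1.12 CPM in F121A against 2.59 in KI WT (-1.21 ± 0.36, adjusted p = 0.0322). The 2 effects were called different at that time. Pf4, a platelet-type CXC chemokine, was lower in KO2 KO at each time, with log2 fold changes of -1.02 ± 0.12 at 0 h, -1.36 ± 0.12 at 6 h (41.3 against 90.1 CPM) and -1.02 ± 0.13 at 24 h, and higher in F121A at rest (0.65 ± 0.18, adjusted p = 0.0281). Of the 8 receptors of the family 3 were tested in KO2 and KI, and 1 call was made over all their genotype comparisons. It was Cxcr3 in KO2 at 24 h (11.3% of all genes were called), near the floor at 0.473 against 0.0875 CPM (2.18 ± 0.70, adjusted p = 0.0301). Of 6 proteases that shed or cut CXC chemokines, 4 were tested. At 24 h in KO2 (11.3% of all genes called) the elastase Mmp12 (95.5 against 26.4 CPM) and Mmp8 (45.2 against 16 CPM) were higher. Adam10, the Cxcl16 sheddase, was lower (23.4 against 34.1 CPM, -0.51 ± 0.17, adjusted p = 0.0443). In KI Adam17 (-0.36 ± 0.08) and Mmp8 (-0.41 ± 0.11) were lower at rest (2.94% of all genes called). At 6 h in KI (11.5%) Mmp8, Mmp12 and Adam17 were lower, with Mmp12 at 456 against 708 CPM (-0.57 ± 0.15, adjusted p = 0.00608).

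Genes of LPS and NF-kB signalling were called in both directions in KO2 and KI. Of 26 tested in KO2, 0 rose and 1 fell at rest (8.28% of all genes were called), 4 rose and 1 fell at 6 h (15.4%) and 5 rose and 0 fell at 24 h (11.3%), with list medians of 0.13 at 6 h and 0.02 at 24 h. At rest the inhibitor Nfkbia fell (113 against 146 CPM, -0.56 ± 0.11). At 6 h the LPS co-receptors Cd14 (0.62 ± 0.15) and Ly96 (0.55 ± 0.16), the kinase Ikbkb (0.44 ± 0.12) and Nfkbiz, a nuclear co-activator of NF-kB targets (0.33 ± 0.09), were higher in KO. Nfkbia was lower in KO at 6 h (-0.32 ± 0.10 scaled by TMM), with a smaller gap in CPM (2055 against 2204). Those higher in KO at 24 h were Nfkbiz (91.7 against 49.3 CPM, 0.92 ± 0.10), the inhibitors Nfkbia (939 against 583 CPM, 0.68 ± 0.11) and Tnfaip3 (102 against 51.8 CPM, 1.01 ± 0.25), the subunit Rel (0.57 ± 0.17) and Cd14 (0.53 ± 0.16). In KI 1 rose at rest (2.94% of all genes were called), the subunit Rela (0.87 ± 0.16). At 6 h in KI, where the ELR genes were lower, 7 rose and 2 fell (11.5%), among them Rela (118 against 45.1 CPM, 1.42 ± 0.16), Relb (0.68 ± 0.13) and Bcl3 (1.10 ± 0.23). At 24 h in KI 0 rose and 2 fell (7.2%), Tnip1 (-0.74 ± 0.20) and Tnfaip3 (-0.50 ± 0.16). The counts at rest in both cohorts, in KO2 at 6 h and in KI at 24 h are near or below the share over all genes.

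Of the interferon signalling genes, 5 of 20 tested rose and 0 fell in KO2 at rest, where Cxcl9 and Cxcl10 were also higher, among them Irf7 (1269 against 149 CPM), Usp18 (31 against 9.18 CPM), Irf9 (65.6 against 39.5 CPM) and Stat2 (47.2 against 27.6 CPM). These 5 compare with 8.28% of all genes called. In KO2 4 rose and 5 fell at 6 h (15.4% of all genes called). Those of smallest adjusted p were Ifngr2 (355 against 447 CPM, -0.54 ± 0.09), Socs3 (1238 against 1988 CPM, -0.88 ± 0.17) and Irf8 (3455 against 4314 CPM, -0.53 ± 0.11). At 24 h in KO2 3 rose and 3 fell (11.3%), with Ifnar2 (0.41 ± 0.08), Usp18 (0.69 ± 0.15) and Tyk2 (-0.66 ± 0.15) of smallest adjusted p. In KI edgeR and DESeq2 called 0 of 21 at rest (2.94% of all genes called by edgeR), with 3 at an unadjusted p under 0.05. In KI 9 rose and 0 fell at 6 h (11.5%), those of smallest adjusted p being Ifnar1 (0.66 ± 0.08), Ifngr2 (0.50 ± 0.08) and Irf7 (0.72 ± 0.12). At 24 h 4 rose and 0 fell (7.2%), namely Usp18 (0.55 ± 0.10), Irf5 (0.35 ± 0.09), Ifnar1 (0.28 ± 0.08) and Irf1 (0.31 ± 0.10). At rest in KI the list had a median of -0.03.

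Among genes that control the decay of short-lived mRNAs, Dusp1, a phosphatase that restrains the p38 pathway, was called in both cohorts at 6 h and 24 h. Of 18 tested in KO2, 1 fell at rest (8.28% of all genes called), Traf3ip2 (2.28 against 3.55 CPM, -0.82 ± 0.22). At 6 h 0 rose and 3 fell (15.4%), Dusp1 (660 against 803 CPM, -0.49 ± 0.11), Zfp36l2 (8.35 against 12.1 CPM, -0.75 ± 0.15) and Mapkapk2 (62.6 against 72.7 CPM, -0.43 ± 0.12). These log2 values are scaled by TMM, and the falls in CPM are smaller. Calls of the list genes on library totals are not given here. At 24 h 3 rose and 0 fell (11.3%), Dusp1 (184 against 101 CPM, 0.87 ± 0.12), Mapkapk2 (0.67 ± 0.13) and Zc3h12c (0.61 ± 0.19). In KI 1 rose at rest, Elavl1 (0.39 ± 0.09; 2.94%). At 6 h in KI 2 rose and 0 fell (11.5%), Dusp1 (615 against 228 CPM, 1.47 ± 0.15) and Zfp36, which encodes the AU-rich element binding protein tristetraprolin (45.6 against 21.1 CPM, 1.15 ± 0.25). At 24 h 2 rose (7.2%), Dusp1 (0.81 ± 0.15) and Zfp36l2 (0.65 ± 0.19). With so few genes tested, the counts at each time in both cohorts are near the share over all genes. In KO1 edgeR and DESeq2 called 0 of the 79 list genes tested at each time, with 4, 3 and 6 at an unadjusted p under 0.05.

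Summed levels of several marker lists differed between the KO2 genotypes. The summed level of the 12 neutrophil markers, all found by symbol, was 68.1 to 94.9 CPM in KO2 WT and 90.7 to 166 CPM in KO at 24 h, led by Csf3r and holding Mmp8, which is also among the proteases above, with Mpo, Elane, Retnlg and, in KO, Ngp at 0 in every library. At 6 h, when the ELR genes were already higher in KO, the neutrophil sum was 42.5 to 64.9 CPM in WT and 41.1 to 61.9 CPM in KO. The 7 of 8 monocyte markers found summed to 14.3 to 24.0 CPM in KO2 WT and 30.1 to 45.7 CPM in KO at 24 h, 76.2 to 141 and 97.1 to 146 CPM at 6 h, and 7.72 to 14.6 and 18 to 31.5 CPM at rest. The 9 dendritic cell markers summed to 422 to 594 CPM in KO2 WT and 631 to 945 CPM in KO at 6 h, and to 799 to 1311 and 958 to 1618 CPM at 24 h. Bst2 alone averaged 469 CPM in WT and 712 CPM in KO at 6 h, and 1065 and 1209 CPM at 24 h. It thus made up most of these sums, and Cd209a was at 0 in WT at 6 h and in KO at 24 h. In WT at rest Bst2 had averaged 72.6 CPM, so it rose with stimulation, and these sums are not read as numbers of dendritic cells. The macrophage markers summed to less in KO2 KO at each time, with 28981 to 33373 CPM in WT and 19795 to 25681 CPM in KO at 24 h. Lyz2, the locus that carries the Cre, led this sum in WT, with means of 42460 CPM at 0 h and 15639 CPM at 24 h. In KO the highest of these markers was Ctsb, at 23172 and 10611 CPM. The part of Lyz2 in the lower sum was not tested. In KI at 24 h the neutrophil sums were 61.0 to 86.6 CPM in WT and 62.5 to 79.8 CPM in F121A. In KO1 at 6 h they were 112 to 220 CPM in WT and 133 to 433 CPM in KO. Their part in the differences between genotypes was not tested, and in RNA of whole cultures a change in the number of cells of a type cannot be told apart from a change in RNA per cell.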

How the data were processed

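Gene counts of all libraries were read from the 3 deposited tables. Per the submitters' processing notes, TopHat and HTSeq were used with the mouse build mm10; their versions, settings and the annotation are not given in the sources used here. The values are raw counts per gene symbol as deposited by the authors, and all columns were mapped to samples by name. Labels conflicted for 2 libraries, which were kept and left out in an alternative.

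CPM is each count divided by its library total, times 1e6. KO1 repeats were summed per culture number. Genes were filtered with filterByExpr and scaled by TMM, and 1 model of 6 groups per cohort was fitted with edgeR 4.0.16 (quasi-likelihood test, R 4.3.3), with Benjamini-Hochberg adjustment over all genes tested and a threshold of 0.05. Differences between cohorts came from joint fits. The script was tested on simulated data. Alternatives were DESeq2 1.42.0, DESeq2 size factors, no filter, each comparison's groups alone, single or summed libraries, a replicate block and, added after seeing the data, library totals in place of TMM. In KO1 each culture was also left out in turn. In KI replicate 5 of F121A at 0 h was left out, and in KO2 no single library was left out. No 2 libraries of the same group agreed within sampling noise in a chi-square test of 467 pairs.

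In KO1, same-numbered cultures deviated together between 0 h and 6 h (correlation 0.291 to 0.631 in WT, 0.26 to 0.501 in KO) and between 6 h and 24 h (0.169 to 0.571 and 0.416 to 0.542). Between 0 h and 24 h the correlations were 0.0276 to 0.33 in WT and -0.0688 to 0.218 in KO. In KI, same-numbered libraries of F121A at 6 h and WT at 24 h, of different genotype, had 0.146 to 0.467. The KO1 numbers may thus pair the times, which these correlations do not settle.

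The members, gene lists and markers were chosen with earlier results of these data known. Named list genes are up to 3 called genes of smallest adjusted p per list and comparison, or every called gene where 5 or fewer were called, except for a gene that is not reported here. Total counts per library ran from 1448218 to 15627379. T, NK and B cell markers were also listed.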

Additional observations from a re-analysis of the deposited data

Results flagged for a closer look

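In 84 groups of 4 to 10 samples, 3 held a sample far from the others, where chance gives about 1 in 20 groups. Cxcl2 in KO2 WT at 24 h was at 62.4 CPM in replicate 1, against 43.2 CPM in the next library. Cxcl9 in KI WT at 6 h was at 10990 CPM in replicate 5. Cxcl16 in KI F121A at 0 h was at 518 CPM in replicate 5, against 918 CPM in the next library.

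The rise from 0 h to 6 h differed between genotypes by 1.61 for Cxcl2, -2.74 for Cxcl9 and -1.29 for Cxcl10 in KO2, and by -1.36 for Cxcl2, -2.95 for Cxcl9 and -0.83 for Cxcl10 in KI (the KO2 Cxcl9 value rests on 4 resting counts in WT; log2 scale, mutant minus WT, edgeR's interaction test). The values of Cxcl10 in both cohorts and of Cxcl9 in KI mainly reflect the resting difference, as the levels at 6 h were not called different. From 6 h to 24 h the KO2 difference was 1.33 for Cxcl1 and 1.60 for Cxcl2. The KO2 genotype effect minus the KI effect was -1.29 for Cxcl2 at 0 h. At 6 h it was 3.05 for Cxcl1, 1.72 for Cxcl2, 2.44 for Cxcl3, -0.85 for Cxcl11 and -0.49 for Cxcl16, and at 24 h it was 4.36 for Cxcl1, 2.91 for Cxcl2 and 3.04 for Cxcl3.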

How the results depend on the processing

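Of 1615 log2 fold changes recomputed under the alternatives, 1529 kept their direction and side of the threshold, 27 became called, 29 lost the call and 30 changed sign. Of 285 recomputed counts of members called, 266 stayed within 1.5 times. In KO1 between genotypes, the count of 0 became 1 with DESeq2, 2 with no filter and 3 with single libraries at 0 h (0 to 2 with a culture left out, 2 without S35), 3 with no filter and 1 with single libraries at 6 h, and 2 with no filter at 24 h. Single libraries gave 5 in place of 3 in KO1 KO at 24 h against 6 h (2 to 3 with a culture left out). With single libraries the 3 repeats of a KO1 culture enter as separate units, so those counts overstate the replication. The KO1 interaction at 6 h against 0 h went from 0 to 1 with no filter and with single libraries, and the KO2 minus KO1 differences from 0 to 1 with no filter at each time. In KO2 at 0 h, 3 calls became 1 in libraries summed in threes. They also became 1 in a fit of the 2 groups alone, where Cxcl9 and Cxcl10 did not pass the filter on low counts and were not tested. In such fits at 0 h Cxcl1 and Cxcl3 were not tested in any cohort, nor Cxcl11 in KO2 and KI. The KI interaction at 24 h against 6 h went from 0 to 1 with DESeq2, with no filter, in the groups alone and with the replicate block. The causes of the other changes were not tested.

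Under the replicate block the pairing left the KO1 counts at 7 and 3 in WT and 7 and 3 in KO, and turned Cxcl11 in KO1 WT at 24 h against 6 h from -0.15 to 0.21 (0.205). No block was possible between KO1 genotypes, which share no numbers.

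Signs changed without a call in KO1. At 6 h between genotypes and with a culture left out, Cxcl9 (-0.23) ranged from -0.434 (S35) to 0.106 (S34) and was 0.019 without S38. Cxcl10 (0.20) ranged from -0.25 (S36) to 0.58 (S35) and was -0.007 on library totals. Cxcl11 (0.195) ranged from -0.443 (S36) to 1.364 (S35), with -0.126 without S33, -0.178 without S34 and -0.003 on library totals. At 24 h Cxcl9 (0.04) ranged from -0.226 (S35) to 0.309 (S33), with -0.179 without S37, and Cxcl11 (0.373) from -0.014 (S36) to 0.767 (S35). In WT at 24 h against 6 h Cxcl3 ranged from -1.104 (S33) to 0.609 (S35), Cxcl10 from -0.45 (S33) to 0.266 (S35) and Cxcl11 from -0.408 (S34) to 0.629 (S35). In KO over that interval Cxcl11 (0.024) became -0.053 with DESeq2, -0.052 with its size factors, -0.049 in the groups alone, -0.071 with single libraries, and -0.08 (S37) to 0.261 (S36) with a culture left out, with -0.013 without S38. On library totals KO2 Cxcl10 and Cxcl11 at 6 h became 0.095 and 0.082, and in KO2 WT at 24 h against 6 h 0.216 and 0.014. In KI, Cxcl1 at 0 h became -0.057 without F121A replicate 5, and at 6 h Cxcl10 became -0.001 with no filter, Cxcl16 0.005 without the library of conflicting labels, and Becn1 -0.002 with no filter and -0.008 on library totals. The ELR minus interferon-induced difference in KO2 KO at 0 h became -0.095 with a pseudocount of 0.1. Depth limits the resting values of Cxcl1, Cxcl3, Cxcl9 and Cxcl11.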
